A study of Drosophila melanogaster with 9 samples.

Results

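Core KDM5 regions with a single H3K4me3 peak are places on the large chromosome arms of Drosophila melanogaster where tagged KDM5 was found in every anti-HA library and 1 peak of the histone mark lay in the same interval. They were chosen by merging the 4 anti-HA peak lists, with 1 bp of overlap sufficient, into 7537 regions. A region was kept if it lay on 2L, 2R, 3L, 3R or X, had a peak in all 4 lists and overlapped exactly 1 peak of the wildtype H3K4me3 list. There were 2263 such regions, 67.8% (95% Wilson interval 66.2 to 69.4) of the 3337 core regions on these arms. The remaining core regions held no H3K4me3 peak (543) or several (531). Presence in the anti-HA lists and overlap with the mark chose the regions, so those values are given as a description.

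All flies were whole adult females aged 1 to 3 days. The anti-HA libraries, paraquat and control alike, came from k6801/k6801;gHA-KDM5 flies, which carry KDM5 with an HA tag as a genomic rescue transgene. For 6 hours 2 libraries' flies had 20 mM paraquat, a herbicide used to cause oxidative stress, in 5% sucrose, and 2 control libraries' flies had 5% sucrose with no paraquat. Antibodies against KDM5 and against H3K4me3 were each used for 1 library from wildtype (w1118) flies, whose labels record neither sucrose nor paraquat. Chromatin came from whole animals, so each peak is an average over all tissues of the fly, and a signal present in few cells cannot be told apart from a weak signal in many.

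KDM5, known in the fly as Lid, is a demethylase that removes methyl groups from lysine 4 of histone H3, and a PHD finger of the same protein binds the trimethylated form. H3K4me3 marks nucleosomes at the start of active genes, mostly those just downstream of the start site. Chromatin immunoprecipitation followed by sequencing (ChIP-seq) recovers DNA bound to the protein or carrying the mark. The summit of a peak is the base with the most fragments. The genome build was dm3, and no gene or sequence of that build was used here, so directions below follow the reference strand and not a gene.

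The anti-HA lists held 7403 and 4853 peaks in paraquat libraries 1 and 2, and 5886 and 4919 in control libraries 1 and 2. The wildtype lists held 8948 peaks for KDM5 and 7287 for H3K4me3, of which 4612 were on the 5 arms. Read totals are not part of these lists, and the depth of each library is unknown. The labels do not say if libraries 1 and 2 of a condition were made from different flies, so p-values measure only the spread between these libraries, which may be technical.

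Nearly every region had a mark of its own. The 2263 regions used 2253 different H3K4me3 peaks, 48.9% (47.4 to 50.3) of those on the arms, and 10 peaks were each shared by a pair of neighbouring regions. In 45 regions the mark also overlapped another anti-HA region that is not among the 2263. In 1841 regions (81.4%) the mark lay wholly inside the KDM5 region, in 27 the KDM5 region lay inside the mark, and in 395 the intervals overlapped in part. Few regions sat at the edge of the rule. The smallest overlaps were 2, 7 and 18 bp, and 8 regions overlapped their mark by less than 50 bp. On the other side of the rule, the core regions without a mark that came closest to one missed it by 3, 11 and 16 bp, and 12 lay within 100 bp of a mark. Another 255 regions on the arms held exactly 1 mark but had a peak in 3 of the 4 anti-HA lists.

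The wildtype KDM5 list took no part in choosing the regions. All 2263 regions held a wildtype KDM5 peak (100%, interval 99.8 to 100), as did 542 of the 543 core regions without a mark (99.8%, 99.0 to 99.97) and all 531 with several (100%, 99.3 to 100). The strength of the endogenous protein differed more than its presence. The median fold enrichment over background, which is the authors' value here and throughout, was 9.08 with an interquartile range of 8.08 to 9.91 in regions with 1 mark. It was 7.54 (6.40 to 8.57) in core regions without a mark and 9.24 (8.31 to 10.1) in those with several. These are values of 1 library, and the difference was not tested. The median width of the wildtype KDM5 peak was 1114 bp in regions with 1 mark, against 1022 bp without a mark and 1805 bp with several. More than 1 wildtype KDM5 peak was found in 39 regions with 1 mark (1.72%), in 8 without a mark (1.47%) and in 67 with several (12.6%).

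The summits of the mark and KDM5 lay close to each other in most regions. The rule asked for overlap, which limits this distance, so it is a description. How much of the closeness comes from the rule was not tested. The median distance between the H3K4me3 summit and the strongest KDM5 summit of the region was 79 bp in paraquat library 1, 95 bp in paraquat library 2, 77 bp in control library 1 and 87 bp in control library 2. The mean over the 4 libraries was 84.5 ± 8.2 bp (SD, n = 4, paraquat and control pooled). In wildtype KDM5, the only KDM5 library from flies of the same genotype as the mark, it was 76 bp. The distance was at most 100 bp in 59.2% and 51.8% of regions in the paraquat libraries, 60.8% and 54.5% in the control libraries and 61.6% in wildtype KDM5. Distances beyond 500 bp were found in 24 and 42 regions in the paraquat libraries and in 23 and 29 in the control libraries. They were found in 192 regions in wildtype KDM5, whose peaks are wider and can extend past the region.

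**Figure D1:**
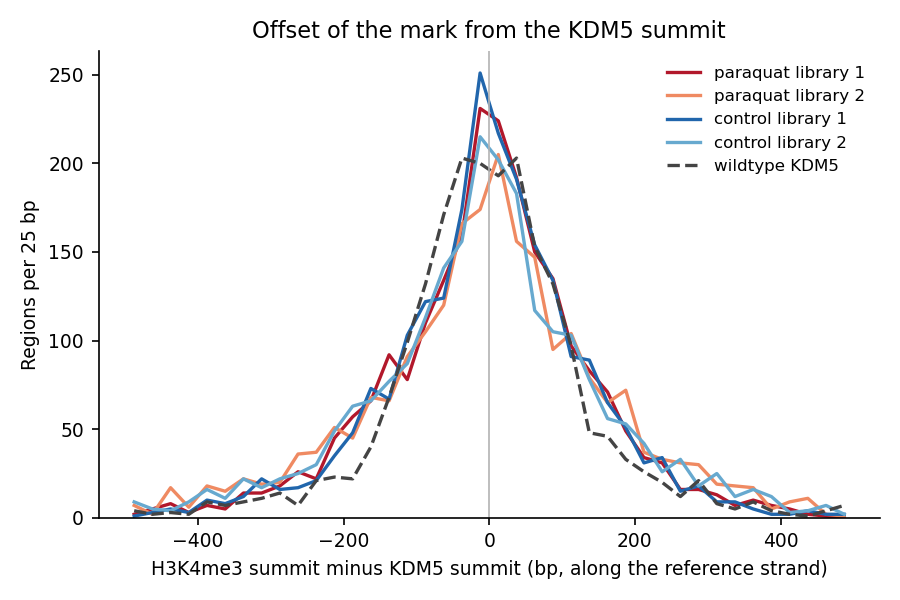
Position of the H3K4me3 summit relative to the KDM5 summit (x axis, bp along the reference strand) against the number of regions per 25 bp (y axis), 1 line per KDM5 library. All 5 lines are highest within 50 bp of 0 and fall off on both sides, with median signed offsets between -3 and 3 bp.

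Neither side of the KDM5 summit was favoured along the reference strand. The mark lay at the higher coordinate in 50.9% and 50.7% of regions in the paraquat libraries, 49.7% and 48.7% in the control libraries and 49.0% in wildtype KDM5. In 1287 regions (56.9%) all 4 anti-HA summits lay on the same side of the mark's summit, with the mark at the higher coordinate in 640 and at the lower in 647. All offsets of a region share the 1 H3K4me3 summit, so the 4 libraries are not independent measures of the side. Wildtype KDM5 put the mark on the same side as the median of the anti-HA libraries in 73.8% of all regions.

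The distance to the mark was larger than the scatter of KDM5 summits between anti-HA libraries, but close to that between anti-HA and wildtype KDM5. Between pairs of anti-HA libraries the summits of a region lay a median of 33 to 48 bp apart, with 33 bp for paraquat 1 and control 1 and 48 bp for paraquat 2 and control 1. From the wildtype KDM5 summit they lay a median of 62 and 80 bp in the paraquat libraries and 61 and 77 bp in the control libraries, against 79 and 95 bp and 77 and 87 bp from the mark. Each anti-HA library and the mark were also set against the span of the summits of the other 3 anti-HA libraries. The mark's summit lay outside that span in 64.1% ± 0.8 of regions, and the left-out anti-HA summit in 49.3% ± 4.2 (SD over the 4 libraries left out in turn). It lay more than 100 bp outside in 21.0% ± 1.2 of regions for the mark and 9.21% ± 1.6 for the left-out library. The mark had the higher share with each of the 4 libraries left out, at 19.8% to 22.7% against 7.51% to 11.4%. Wildtype KDM5 was between them, with 16.6% ± 0.6 more than 100 bp outside. The mark and wildtype KDM5 come from another genotype and from other antibodies than the tagged libraries, and the part of these in the distances was not tested.

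The regions at the extremes of distance were few. At the closest, on 3R (positions 8257007 to 8257866), the mark's summit lay 6 and -5 bp from the KDM5 summits of paraquat libraries 1 and 2 and -3 and 0 bp from those of control libraries 1 and 2. The KDM5 folds there were 5.91, 4.25, 5.04 and 4.51 in the same order, and the mark's fold was 2.56. The other closest regions were on 3R (8856017 to 8856305), X (9053491 to 9054026) and 2R (6766336 to 6767214), where no anti-HA summit was more than 12 bp from the mark's. The wildtype KDM5 summit lay 30 bp from the mark's at the first region and 105, 106 and 74 bp from it at these. At the 3R region named first the paraquat and control offsets overlapped. On X the mark lay at -11 and -3 bp in the paraquat libraries and at 7 and 10 bp in the control libraries, without overlap. That region was named for its small offsets. Over all regions, anti-HA summits lay a median of 33 to 48 bp apart between libraries. The separation on X was not tested.

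The farthest mark with all libraries on one side was on X (positions 8454546 to 8456020). Its summit lay 1167 and 1129 bp from the KDM5 summits of the paraquat libraries, 1134 and 1293 bp from those of the control libraries and 1154 bp from the wildtype KDM5 summit, so that all 5 libraries placed KDM5 at the other end of a 1475 bp region. The mark there was weak, with a fold of 2.16, and it ranked at percentile 23.2 of its list, where 100 is the strongest. On 2R (10644810 to 10645382) the mark was strong, with a fold of 4.37, and 1137 bp wide. Its summit lay 937 and 922 bp to the lower-coordinate side of KDM5 in the paraquat libraries and 948 and 955 bp in the control libraries. The mark's summit there, at 10644255, lay outside the region, so no anti-HA summit counted for the region could lie at it. The wildtype KDM5 peak can extend past the region, and its summit lay 44 bp from the mark's. The wildtype and anti-HA distances are therefore not comparable at this region. At the next region, on X (11017447 to 11019049), the mark lay 1003, 626, 920 and 779 bp to the lower side in paraquat 1, paraquat 2, control 1 and control 2, and 981 bp in wildtype KDM5. On 2R at 6700339 to 6701359 it lay 290 bp to the lower side in paraquat library 1 and wildtype KDM5, but 826, 827 and 824 bp in the other 3 libraries. A region can hold more than 1 KDM5 peak of a library, and the part of this in the split there was not tested.

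KDM5 peaks of single libraries were somewhat wider than the mark. Median KDM5 widths were 599 and 433 bp in the paraquat libraries and 449 and 413 bp in the control libraries, against 382 bp for the mark, which had an interquartile range of 242 to 528 bp. The KDM5 peak was the wider of the 2 peaks in 87.1% and 60.5% of regions in the paraquat libraries and in 62.4% and 54.6% in the control libraries. Wildtype KDM5 was wider than the mark in 99.7%. The merged regions were 684 bp wide (552 to 841 bp), and the mark covered a median of 55.1% of the region (36.3% to 72.6%). Marks in these regions were wider than the other marks on the arms. Marks of core regions with several peaks had a median of 278 bp (n = 1149), and marks on the arms outside any core region 171 bp (n = 1219). A wide mark overlaps a region more readily, and the part of the rule in this order was not tested.

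**Figure D2:**
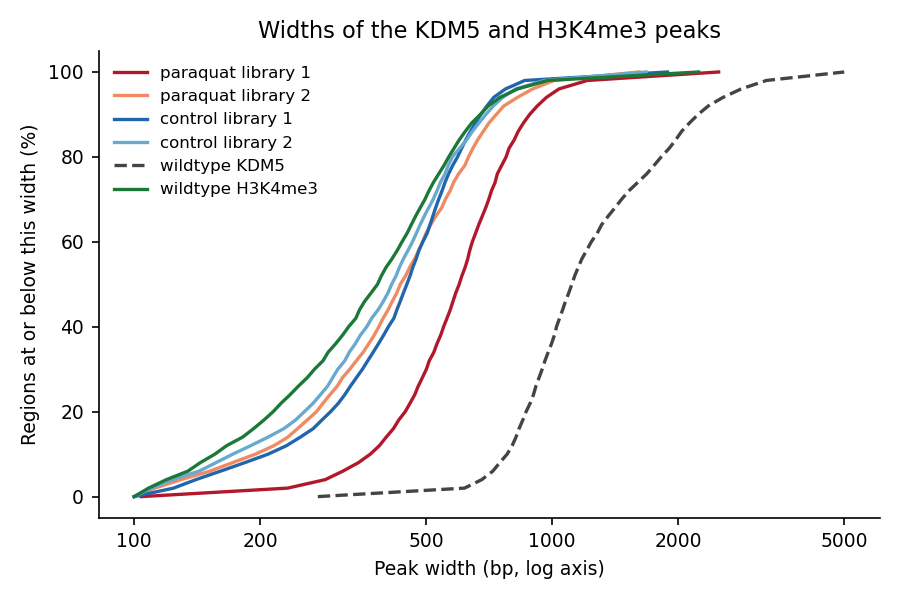
Share of the 2263 regions (y axis, percent) with a peak at or below a given width (x axis, bp, log axis), for each KDM5 library and for the H3K4me3 peak. Paraquat library 1 lies to the right of the other 3 anti-HA libraries, with a median of 599 bp against 413 to 449 bp, and wildtype KDM5 lies farthest right at 1114 bp. The widths of wildtype KDM5 are not on the scale of the other lists, since its shortest peak was 206 bp against 100 bp.

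The widest marks showed how much the widths could vary at shared places. A mark of 2240 bp on 2L (region 6046937 to 6049437) had a fold of 4.0, with KDM5 summits 100 and 243 bp away in paraquat libraries 1 and 2 and 123 and 187 bp away in control libraries 1 and 2. The number 1 libraries put KDM5 to the lower side of the mark's summit there and the number 2 libraries to the higher side. Marks of 1724 bp on 3L (8108232 to 8109928) and 1677 bp on 3R (27572179 to 27574176) had folds of 3.29 and 2.96. Across all regions the mark's width had little relation to its distance from KDM5. In the narrowest quintile of marks (100 to 215 bp) the median distance was 83.0 ± 5.7 bp, and in the widest quintile (566 to 2240 bp) it was 91.5 ± 13.8 bp (SD, n = 4 libraries). The share of KDM5 summits that fell inside the mark was 45.7% to 55.0% over the 4 libraries in the narrowest quintile and 93.2% to 98.0% in the widest.

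Stronger marks went with stronger KDM5. Spearman's rho between the fold of the mark and that of KDM5 across the 2263 regions was 0.53 and 0.41 in paraquat libraries 1 and 2, 0.54 and 0.44 in control libraries 1 and 2, and 0.37 in wildtype KDM5. Regions of 1 library share its depth and its background, so these are descriptions with no test. Ranking the regions by the fold of the mark made this plain in every anti-HA library. In the weakest quintile (mark folds of 1.67 to 2.32) the median KDM5 fold was 3.90 and 3.15 in the paraquat libraries and 3.12 and 3.18 in the control libraries. In the strongest quintile (3.21 to 5.95) it was 5.57 and 4.39 in the paraquat libraries and 4.53 and 4.45 in the control libraries. Most of the difference lay in the upper part of the scale, since the middle quintile still had medians of 4.21, 3.27, 3.44 and 3.35 in the same order of libraries. Wildtype KDM5 had medians of 8.35 in the weakest and 9.84 in the strongest quintile.

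**Figure D3:**
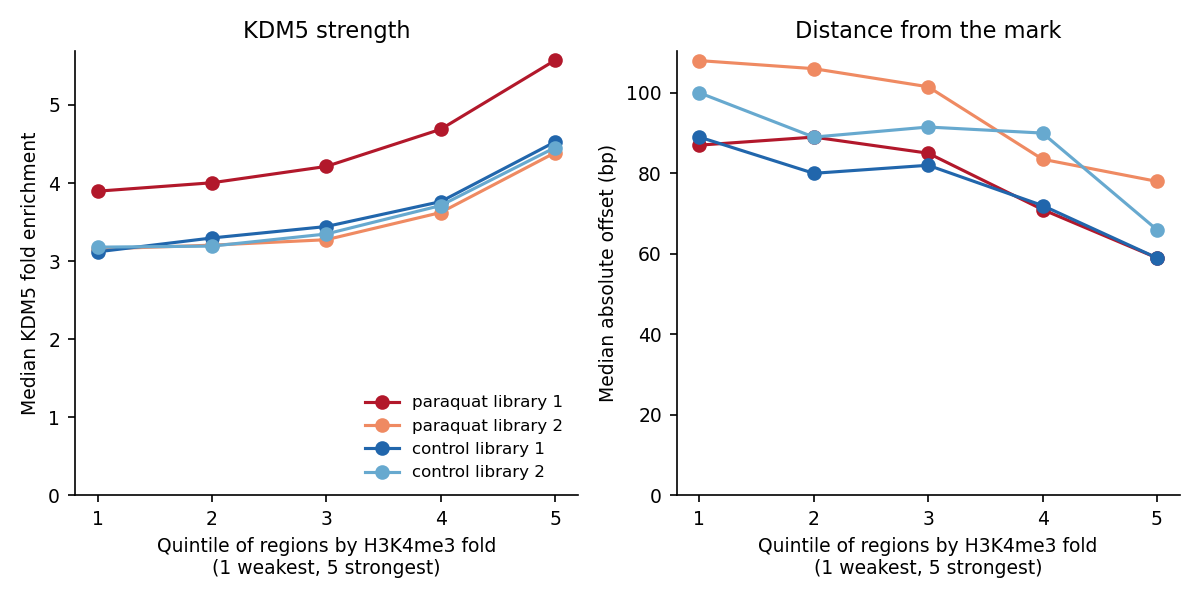
Median KDM5 fold enrichment (left, y axis) and median absolute distance between the KDM5 and H3K4me3 summits in bp (right, y axis) for quintiles of the regions by the fold of the H3K4me3 peak (x axis), 1 line per anti-HA library. From the weakest to the strongest quintile, folds averaged over the libraries were 3.34 and 4.74, and distances 96.0 and 65.5 bp.

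The strongest marks were also nearer to KDM5, but the relation across all regions was weak. The mean over the 4 libraries of the median distance was 96.0 ± 9.8 bp in the weakest and 65.5 ± 9.0 bp in the strongest quintile (SD, n = 4), and the strongest quintile had the shorter distance in each of the 4 libraries. In wildtype KDM5 the medians were 87 and 66 bp. Spearman's rho between the fold of the mark and its distance from the median anti-HA summit was -0.11 across the 2263 regions. From the weakest quintile to the strongest, the medians of that distance were 80, 78.5, 80.25, 73.5 and 59.5 bp, so the decrease lay among the stronger marks. Strong marks were wider as well, with median widths of 235 bp in the weakest and 556 bp in the strongest quintile. The position of a summit is read more precisely from a taller peak, and the part of this in the distances was not tested.

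The strongest regions, by mean percentile over the 4 anti-HA lists, had strong marks close by. On 2R at 12949623 to 12950377 KDM5 folds were 10.2 and 9.47 in the paraquat libraries and 9.50 and 9.39 in the control libraries, and the mark, of fold 5.13, lay within 41 bp of every anti-HA summit. The others were on 3R (16152850 to 16153948 and 11034783 to 11035665), X (12489023 to 12489726 and 2479604 to 2480703) and 3L (11995528 to 11996304). Their marks had folds of 4.44 to 5.81 and percentiles of 98.7 to 99.8. No anti-HA summit of these regions was more than 94 bp from the mark's.

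Some regions departed from this relation. They were ranked on the tagged libraries only. The largest excess of the mark over tagged KDM5 was on 3R (1431905 to 1432278), where the mark's fold of 4.44 ranked at percentile 98.8. Tagged KDM5 there had folds of 3.60 and 2.60 in the paraquat libraries and 2.36 and 2.75 in the control libraries, a mean percentile of 31.9. It was followed by regions on 3L at 1557790 to 1558178 (mark fold 3.67) and 7236467 to 7236964 (mark fold 2.94). Wildtype KDM5 ranked at percentiles 59.1, 72.2 and 91.2 of its list at these regions in turn, against a median of 82.9 over all regions. At the last it ranked above the mark, which was at percentile 75.5. The largest excess of tagged KDM5 was on X (16530584 to 16531636). Its folds there were 6.79 and 4.86 in the paraquat and 5.03 and 4.96 in the control libraries, a mean percentile of 95.1. The mark there had a fold of 1.97 and percentile 12.1, and its summit was 452, 625, 435 and 521 bp from KDM5. The next were on X (7179901 to 7180444, mark fold 1.98) and 3R (11876330 to 11877125, mark fold 1.71).

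Paraquat and control libraries did not differ beyond their spread in where KDM5 lay relative to the mark. The median distance averaged 87.0 ± 11.3 bp in paraquat and 82.0 ± 7.1 bp in control libraries (SD, n = 2 each), a difference of 5.00 bp (exact permutation test over libraries, two-sided, p = 0.667). Libraries permuted 2 against 2 cannot give a p below 0.333. Within number 1 the difference was 2 bp and within number 2 it was 8 bp. Without paraquat library 2 the difference was -1.50 bp. The KDM5 summit lay inside the mark in 79.6% ± 5.8 of regions in paraquat and 81.3% ± 4.5 in control libraries (exact permutation p = 0.667). This difference of -1.77 percentage points became 2.04 without paraquat library 2 and 1.51 without control library 1. The distance was larger in both paraquat libraries than in both control libraries in 377 regions (16.7%) and smaller in 315 (13.9%). Over all 2794 core regions with a mark these shares were 16.6% and 13.6%.

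The median KDM5 width was higher on average in the paraquat libraries, and this rested on paraquat library 1. Median widths averaged 516 ± 117 bp in paraquat and 431 ± 25 bp in control libraries (SD, n = 2 each), a difference of 85.0 bp (exact permutation p = 0.667). Within number 1 it was 150 bp and within number 2 it was 20.0 bp. Without paraquat library 1, which has the most peaks, the difference was 3.75 bp, and without paraquat library 2 it was 166.5 bp. Both paraquat peaks were wider than both control peaks in 665 regions (29.4%) and narrower in 50 (2.21%), and over all 3337 core regions these shares were 31.0% and 2.01%. The counts for the regions with 1 mark are thus near those of the core regions as a whole. The libraries with number 1 had more KDM5 summits inside the mark in both conditions, at 83.7% in paraquat 1 and 75.5% in paraquat 2 and at 84.5% in control 1 and 78.1% in control 2.

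The regions were spread over all 5 arms at like densities. There were 399 on 2L, 438 on 2R, 440 on 3L, 574 on 3R and 412 on X. Per Mb of the stretch of the arm that holds peaks, this was 17.4 (exact Poisson interval 15.7 to 19.1) on 2L, 20.7 (18.8 to 22.8) on 2R, 18.0 (16.3 to 19.7) on 3L, 20.6 (18.9 to 22.3) on 3R and 18.4 (16.7 to 20.2) on X. Their share of the core regions was 64.8% on 2R and 67.8% to 69.2% on the other arms, with overlapping intervals. Along an arm they were unevenly placed. The 117 windows of 1 Mb held a median of 20 regions, with 42 in the fullest windows, 19000001 to 20000000 on 2R and 1000001 to 2000000 on 3R. No region lay in the first Mb of 2R, and 1 lay at 23000001 to 24000000 on 3L. The variance of the counts over windows was 3.75 times their mean, and the Poisson intervals above do not include this unevenness. It was not particular to regions with 1 mark, since their counts went with those of the other core regions over windows (rho of 0.68).

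On X the mark was nearer to KDM5 than on the other arms in all 4 anti-HA libraries. The medians were 70.0 and 86.5 bp on X, against 81 and 98 bp on the other arms, in paraquat libraries 1 and 2. They were 63.0 and 70.5 bp on X, against 80 and 90 bp, in control libraries 1 and 2. The means were 72.5 ± 9.9 and 87.3 ± 8.5 bp (SD, n = 4 libraries). The ranges over libraries overlapped, at 63.0 to 86.5 bp on X and 80 to 98 bp on the other arms. All libraries were set against the same H3K4me3 list, and the difference was not tested. The median fold of the mark was 2.68 on X and 2.68 to 2.72 on the other arms. In wildtype KDM5 the medians were 70.0 bp on X and 78 bp on the other arms.

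The spacing of neighbouring regions depended on the lists used. The median gap to the nearest other region with 1 mark was 2887 bp, and 767 regions (33.9%) had one within 1000 bp. The median gap was 8436 bp with the upper 50% of each anti-HA list, 4755 bp with the upper 50% of the H3K4me3 list and 4964 bp with peaks up to 250 bp apart merged. The median gap to the nearest core region of any kind was 1512 bp, against 2652 bp for core regions without a mark and 2919 bp for those with several. Regions with several marks were also wider, with a median of 1281 bp against 684 bp with 1 mark and 491 bp without. Neither the order of the gaps nor the part of width in it was tested. Regions linked by gaps of at most 5 kb formed 539 groups of 2 or more, with up to 7 regions, and 883 regions (39.0%) stood alone. The other end of the scale was a gap of 746256 bp on X, between regions starting at 2632352 and 3378994. It was followed by gaps of 744538 bp (from 8686262) and 712678 bp (from 22247228) on 2L. A further H3K4me3 peak lay within 1000 bp of the region's own in 877 regions (38.8%), outside the region.

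**Figure D4:**
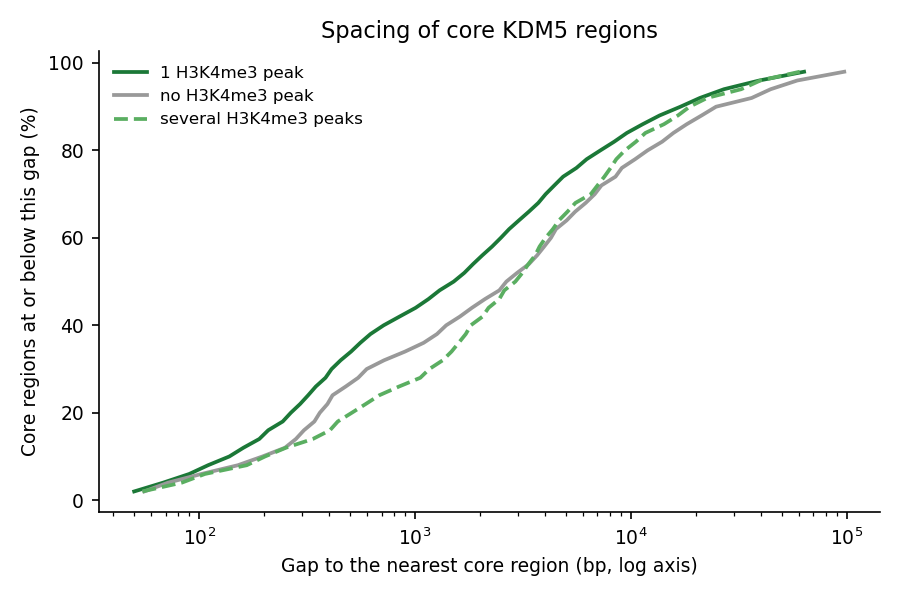
Gap from each core region to the nearest other core region (x axis, bp, log axis) against the share of regions at or below that gap (y axis, percent), by the number of H3K4me3 peaks in the region. Regions with 1 mark have the shortest median gap, 1512 bp against 2652 bp without a mark and 2919 bp with several. Among the longest gaps the order differs, with a 98th percentile of 63565 bp for 1 mark and 60677 bp for several.

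At close neighbours both marks lay on the outer sides of tagged KDM5 more often than on the facing sides. Of the 298 neighbouring pairs less than 500 bp apart, both marks lay on the outer sides of the median KDM5 summits in 119 (39.9%, Wilson interval 34.5 to 45.6). They lay on the facing sides in 35 (11.7%, 8.57 to 15.9), and in 143, the largest class, both marks lay in the same direction along the reference strand. For the 242 pairs 500 to 2000 bp apart the counts were 65 and 66. For the 301 pairs 2000 to 5000 bp apart the order was the other way, with both marks outside in 53 (17.6%, 13.7 to 22.3) and both on the facing sides in 95 (31.6%, 26.6 to 37.0). At 5000 bp or more they were 23.9% and 26.5% of 1417 pairs. This comparison was chosen after the values were seen, and it has no test.

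**Figure D5:**
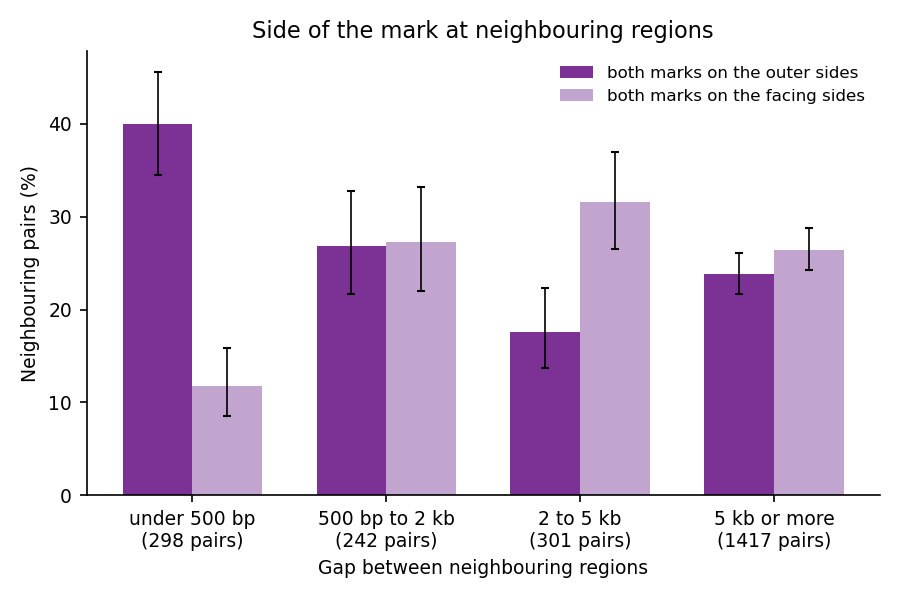
Share of neighbouring pairs of regions with 1 mark (y axis, percent) in which both H3K4me3 summits lay on the outer sides or on the facing sides of the KDM5 summits (median of 4 anti-HA libraries), by the gap between the regions (x axis). Error bars are 95% Wilson intervals. Outer sides lead under 500 bp (39.9% against 11.7%) and facing sides at 2 to 5 kb (31.6% against 17.6%).

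The pattern at close pairs held in each anti-HA library but not in wildtype KDM5. In pairs under 500 bp apart the marks were farther from each other than the KDM5 summits in 63.1% and 75.5% of pairs in the paraquat libraries and in 56.4% and 70.8% in the control libraries, a mean of 66.4% ± 8.4 (SD, n = 4). The marks were a median of 833.5 bp apart, and the KDM5 summits 776.5 and 710.5 bp in the paraquat and 804 and 720 bp in the control libraries. In 118 of these pairs both regions overlapped the same wildtype KDM5 peak. In the other 180 the marks were farther apart than the wildtype KDM5 summits in 88 (48.9%), against 69.0% ± 8.4 for the anti-HA libraries in the same pairs. A mark on the facing side of a close pair can touch both regions, or give one of them a second mark and remove it by the rule, and the part of this in the counts was not tested. At 2000 to 5000 bp the share was 42.5% to 44.5% in the 4 anti-HA libraries and 43.8% in wildtype KDM5. At 5000 bp or more it was 47.1% to 48.9% in the 4 anti-HA libraries and 47.1% in wildtype KDM5. All 5 libraries were set against the same H3K4me3 summits, so they are not independent measures of these shares.

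The closest pair, on X, had 6 bp between regions at 15355984 to 15356554 and 15356561 to 15357275. The marks there had folds of 2.12 and 2.60 and summits 569 bp apart. The next pairs were on 3L (1794864 to 1795278 and 1795288 to 1796093, 9 bp apart) and 2R (7170873 to 7171703 and 7171715 to 7172441, 11 bp apart). In each of these pairs 1 wildtype KDM5 peak overlapped both regions while the anti-HA peaks and the marks were separate.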

How the data were processed

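ChIP-seq peak lists of 6 libraries were used, and the 3 inputs, which have no list, were not analysed here. The submitters' processing notes name CASAVA 1.4, Bowtie, MACS2 and the build dm3. Settings and input pairing are not stated in the sources used here. Per the labels' protocols, fragments of 150 to 350 bp were selected. Each library has its own list, so replicates were not pooled.

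The 10 columns of the deposited lists, which lack a header, were read as those of a MACS2 table, and starts count from 0. Positions are printed counted from 1. The authors' caller gave each deposited peak a signal (the pileup at the summit), the −log10 of its p-value and q-value, and a fold enrichment ratio over local background. The weakest deposited q-values were 0.0421 to 0.0498. The lowest background implied by a list's pileups and folds, which moves with depth, was 13.7 and 13.4 fragments in paraquat libraries 1 and 2, 14.7 and 12.5 in control libraries 1 and 2, 13.6 in H3K4me3 and 31.0 in wildtype KDM5. The shortest wildtype KDM5 peak was 206 bp, against 100 bp elsewhere, so its widths are not on the scale of the others.

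Regions were merged in Python 3.11.15 with pandas 2.3.3 and scipy 1.17.1, checked against bedtools 2.31.1 and tested on simulated data. A library with several peaks in a region was represented by the one with the highest −log10 p. Percentiles are ranks of −log10 p within a list. The regions named have the highest mean percentile, largest one-sided and smallest offsets, closest and longest gaps, widest marks and largest differences of percentile. Paraquat and control were compared by exact permutation of libraries. Intervals cover counting error only, and regions are not replicates. The regions, lists and measures were chosen with earlier results of these data known.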

Additional observations from a re-analysis of the deposited data

How the results depend on the processing

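Other settings of the overlap, the lists, the merging and the summit were tried. The number of regions was 1245 with the upper 50% of each anti-HA list, and between 1825 and 2550 in every other setting tried. The mean of the median distances became 76.2 bp with the upper 50% of each anti-HA list, 71.6 bp with peak midpoints and 118 bp with means over regions in place of medians. The spacing to the nearest region became 8436 bp with the upper 50% of each anti-HA list, 4755 bp with the upper 50% of the H3K4me3 list, 4964 bp with peaks up to 250 bp apart merged and 13511 bp as a mean, and with 1 library left out it was 2171 to 2855 bp. With 1 library left out, the paraquat minus control difference was -1.50 to 13.5 bp in distance, 3.75 to 166.5 bp in width and -5.88 to 2.04 percentage points in the share of summits inside the mark. The remaining 30 of 33 values of these 3 differences kept their direction, and none could pass the threshold of 0.05. The cause was not tested.

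The labels do not say whether libraries with the same number share a batch or day. The differences between libraries 1 and 2 correlated across regions between conditions (Pearson's r of 0.35 for width, 0.37 for fold and 0.29 for offset). With the replicate number as a block the differences were again 5.00 bp, 85.0 bp and -1.77 percentage points, with an exact p of 0.5 each, the smallest this block allows. The lists give no depth, which limits what widths and summit positions can show.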
